A study of Mus musculus with 2 samples.

Results

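The genes described here are the 3 transforming growth factor beta (TGF-beta) ligand genes Tgfb1, Tgfb2 and Tgfb3, the 3 receptor genes Tgfbr1, Tgfbr2 and Tgfbr3, and the 4 Smad genes Smad2, Smad3, Smad4 and Smad7. They were chosen by name, with earlier results of these data known, and all 10 have a row in the table of 21145 genes. Messenger RNA was sequenced from AML12, a nontumorigenic mouse hepatocyte line of strain CD1/MT42, at passages 14 to 16. The line comes from mice that carried a transgene for human TGF-alpha, a ligand of the epidermal growth factor receptor that is distinct from TGF-beta. One library came from cells transduced with a lentivirus for H19, a long noncoding RNA (Lv-H19), and the other from cells given the control virus (Lv-NC). These are called the H19 cells and the control cells. Both lines were selected with puromycin at 0.5 mg/ml and kept at 0.25 mg/ml, and the parent line was grown with insulin, transferrin, selenite and dexamethasone at 40 ng/ml. The labels do not say whether each line was 1 clone or a pool.

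There were 2 libraries, 1 per virus, hence no replicate error for any value, and no test was run. Every difference describes these 2 libraries. Levels are FPKM (mapped fragments per kilobase of transcript, adjusted for library size), which can be compared between genes because they are per length. Differences are those of log2(FPKM + 1), H19 cells minus control cells, which understates differences of low genes. A gene is called measured where its mean FPKM over both libraries is 1 or more, and a difference of at least 1 in size is called 2-fold.

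TGF-beta is made as a latent precursor that is held by its own propeptide and released in the matrix or at the cell surface. The active ligand binds the type II receptor, which phosphorylates the type I receptor, and this in turn phosphorylates Smad2 and Smad3. These join Smad4 and enter the nucleus, while Smad7, itself a target of the pathway, blocks the type I receptor. In liver, TGF-beta is known for arresting hepatocyte growth, for promoting hepatocyte death and for driving stellate cells to make matrix.

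H19 itself was at 4.72 FPKM in the H19 cells and listed at 0 in the control cells, the direction its label gives. Above 0 were 19595 genes in the control cells and 19063 in the H19 cells. Of 14 hepatocyte markers, 8 were measured, 7 lower in the H19 cells and 1 higher. Their median difference was -0.26, beside 0.08 for all measured genes. The keratin Krt8 was at 909 and 658 FPKM in the control and H19 cells and Hnf4a, a transcription factor of liver identity, at 74.4 and 44.4 FPKM, while albumin, Alb, was at 0.990 and 0.178 FPKM and the asialoglycoprotein receptor Asgr1 at 0.0336 and 0 FPKM. Alb and Asgr1 were thus under 1 FPKM in both lines, while Apob, the main protein of the lipoproteins that liver secretes, was at 108 and 104 FPKM. The hepatocyte markers past 2-fold went opposite ways, the antitrypsin gene Serpina1a, whose close copies may share reads, at 2.12 and 0.192 FPKM and the apolipoprotein gene Apoe at 1.51 and 4.06 FPKM. The bile duct genes Krt19 (382 and 219 FPKM) and Spp1 (389 and 222 FPKM) were high in both libraries. Another bile duct keratin, Krt7, was at 39.7 and 10.6 FPKM, a difference of -1.81 that is larger in size than that of any of the 10 genes.

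Of the 10 genes, 9 were lower in the H19 cells and 1, Smad7, was higher. Among the 11674 measured genes, 41.1% were lower. The median difference of the 10 genes was -0.53, beside 0.08 for all measured genes. Tgfb3 and Tgfbr1 were the 2 genes past 2-fold, both lower, where 2.71% of measured genes passed 2-fold in either direction, 1.57% as lower and 1.14% as higher. A threshold of 1.5-fold added Tgfbr2, for 3 lower genes, where 6.21% of measured genes were lower by that much. The authors' deposited table of differences lists the same 2 genes, and it holds 2.65% of all genes in the joint table. That table rests on the same 2 libraries. Every finite log2 ratio in it is at least 1.00 in size, and its highest q, from a test not stated, is 0.0496. Being listed there is thus no independent check. All 10 genes were measured, and 9 of them were at 1 FPKM or more in both libraries, the exception being Tgfb2 in the H19 cells.

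**Figure D1:**
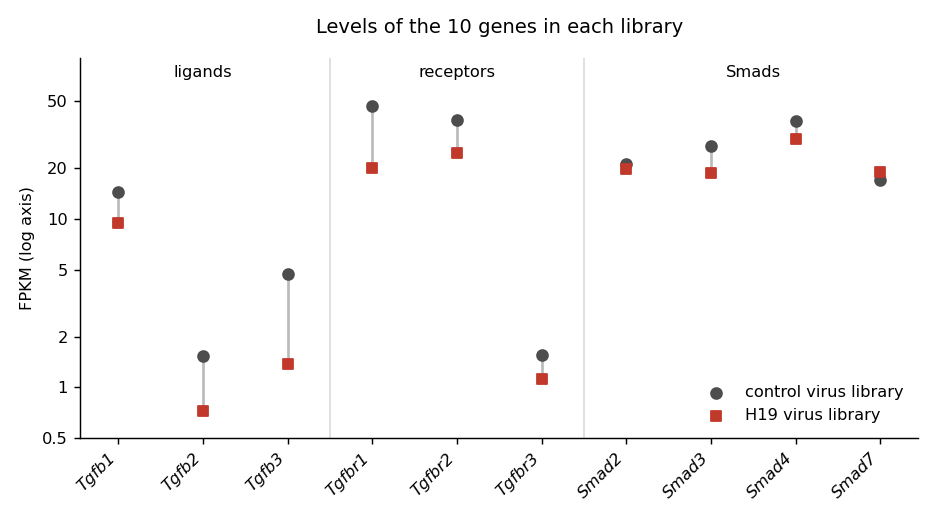
FPKM (log axis) of each of the 10 genes in the control cells (circles) and the H19 cells (squares), 1 library each, with a line joining the 2 values of a gene. The squares lie below the circles for 9 genes and above for Smad7, and the widest gaps are those of Tgfb3 and Tgfbr1.

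The promoter sequences of Tgfbr1 and Tgfbr2 are shown because both receptor kinases signal together, both were lower and both were far more abundant than Tgfbr3. They are RefSeq sequences on GRCm38.p6, from 250 bases before to 50 bases after the start of the gene, 5′ to 3′ on the strand of the gene. Capitals mark matches on either strand to GGGCGG (the GC box bound by Sp1), CCAAT (the box bound by NF-Y) and GCGGGGGCG (the motif of Egr1).
Tgfbr1, chr4:47352972-47353271, plus strand: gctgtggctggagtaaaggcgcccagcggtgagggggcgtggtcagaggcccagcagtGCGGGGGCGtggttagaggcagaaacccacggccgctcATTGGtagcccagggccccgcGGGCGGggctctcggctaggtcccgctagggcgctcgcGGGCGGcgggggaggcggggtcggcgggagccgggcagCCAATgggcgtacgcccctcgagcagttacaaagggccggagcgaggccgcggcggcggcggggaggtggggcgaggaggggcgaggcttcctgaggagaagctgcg
Tgfbr2, chr9:116175314-116175613, minus strand: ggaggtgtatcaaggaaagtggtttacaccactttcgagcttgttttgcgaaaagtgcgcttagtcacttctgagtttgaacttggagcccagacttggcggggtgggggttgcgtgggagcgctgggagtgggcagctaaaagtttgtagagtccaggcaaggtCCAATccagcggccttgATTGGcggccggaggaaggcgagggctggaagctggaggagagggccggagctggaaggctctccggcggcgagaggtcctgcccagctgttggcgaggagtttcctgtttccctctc

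The Tgfbr1 promoter held 2 GC boxes, the first beginning 133 bases before the start, 2 CCAAT boxes and 1 Egr1 motif. RefSeq gives Tgfbr1 a second start, whose promoter (chr4:47385966-47386265, 52.0% GC) held 1 CCAAT box and neither of the other motifs; the FPKM per gene do not show which start was used. The Tgfbr2 promoter held 2 CCAAT boxes and neither of the other motifs. Of 32851 promoters of this length, 35.7% held a GC box, 37.4% a CCAAT box and 2.91% the Egr1 motif. The GC content was 74.7% for the Tgfbr1 promoter shown and 59.0% for Tgfbr2, beside a median of 52.7% over all promoters. Promoters of 5 of the 10 genes were searched. No promoter sequence was at hand for Tgfb3 and Tgfbr3, and those of Smad2, Smad4 and Smad7 were not searched. The Tgfb1 promoter held 6 GC boxes and no TATAAA, and the Tgfb2 promoter held no GC box and 1 TATAAA, which began 31 bases before the start. TATAAA or its reverse complement was in 13.6% of promoters. The AP-1 motif TGACTCA (in 5.20% of promoters) and the cyclic AMP response motif TGACGTCA (1.79%) were in none of the promoters of Tgfb1, Tgfb2, Tgfbr1, Tgfbr2 and Smad3 searched. The shorter motif CAGAC, in 49.6% of promoters, had 2 matches in Tgfb2, 1 in Tgfbr2 and 1 at the second Tgfbr1 start. The promoters of Tgfb1 and Smad3 and the Tgfbr1 promoter shown held none. These matches describe the letters in each window and not sites in use.

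Mature microRNAs tied to H19 are shown with the seed (bases 2 to 8) in capitals, because H19 is the host transcript of miR-675 and is known to bind let-7. The sequences are from RefSeq on GRCm38.p6. No microRNA was measured in these libraries.
mmu-miR-675-5p: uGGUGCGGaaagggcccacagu
mmu-miR-675-3p: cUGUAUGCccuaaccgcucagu
mmu-let-7a-5p: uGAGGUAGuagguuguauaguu

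The longest annotated 3′ untranslated region of each gene was searched for the complement of each seed, on the sense strand alone. The letters searched were CCGCACC for miR-675-5p, GCATACA for the 3p arm of miR-675, then CTACCTC for let-7. No match to the miR-675-5p seed was found in the 10 genes, and 2.31% of 10258 measured genes held one. Tgfbr1 held 1 match to the miR-675-3p seed and 1 to the let-7 seed in 4154 bases. Of 929 measured genes with regions of similar length, 19.6% and 23.9% held a match. Tgfbr3 (3069 bases) and Smad2 (6233 bases) each held 1 let-7 match, where 16.5% and 32.9% of genes with regions of similar length did. The matches of the 2 receptor genes are shown in capitals, as DNA letters from GENCODE M21 transcripts on GRCm38.
Tgfbr1, let-7 seed match, chr4:47410828-47410854, plus strand: aggaggctggttgttCTACCTCactga
Tgfbr1, miR-675-3p seed match, chr4:47412503-47412529, plus strand: cttatttcaaacctaGCATACAtttga
Tgfbr3, let-7 seed match, chr5:107106956-107106982, minus strand: ctttttgtactgtaaCTACCTCatggt

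The let-7 match of Tgfbr1 began 66 bases after the stop codon, and that of Tgfbr3 2672 bases after it. Both were followed by an A, and the miR-675-3p match was not. The part of these microRNAs in the differences was not tested.

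Tgfb1 (ENSMUSG00000002603, chr7:25687002-25705077, plus strand), the most widely expressed TGF-beta ligand, was at 14.4 FPKM in control cells and 9.53 FPKM in H19 cells. Its difference was -0.55, and 7.02% of measured genes had a difference as low or lower. Tgfb1 was the highest of the 3 ligand genes in both libraries.

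Tgfb3 (ENSMUSG00000021253, chr12:86056745-86079041, minus strand), a ligand best known from palate and lung development, was at 4.72 FPKM in control cells and 1.38 FPKM in H19 cells. The control value was 3.42 times the H19 value, the largest ratio among the 10 genes. The difference was -1.26, and 0.677% of all measured genes had one as low or lower. Tgfb3 was also set beside the 2627 genes whose mean level lay within 2-fold of its own, of which 23 were as low or lower (0.876%). In the authors' deposited table Tgfb3 has a log2 ratio of -1.77, p = 2.36e-05 and q = 0.00096. The test behind that table is not stated in the labels or headers.

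The deposited locus of Tgfb3 spans 254 kb although the gene spans 22.3 kb, and the same interval is given for Ttll5, a tubulin polyglutamylase gene on the opposite strand whose end overlaps Tgfb3. Ttll5 was at 7.21 and 4.06 FPKM (difference -0.70). The exons of both genes share 0 bases in GENCODE M21. Tgfb3 exons do share 163 bases with Gm37804 and 257 bases with Gm48008, both on the opposite strand, and the use of strand by the authors is not given. The level of Tgfb3 is uncertain to that extent.

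Tgfb2 (ENSMUSG00000039239, chr1:186622792-186705989, minus strand), a ligand that needs the coreceptor Tgfbr3 for strong binding to the type II receptor, was the lowest of the 10 genes in both libraries. It was at 1.54 FPKM in control cells and 0.724 FPKM in H19 cells, a difference of -0.56. The ratio without a pseudocount was 2.13 in favour of the control library, a log2 ratio of -1.09, so the pseudocount decides whether Tgfb2 counts as 2-fold. Of 1134 genes with a mean level within 2-fold of its own, 10.1% were as low or lower. The authors' deposited table does not list Tgfb2. Its exons share 124 bases with Gm29491 on the opposite strand, and its deposited locus runs to the end of that gene, so its level is uncertain in the same way.

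The 3 ligand genes summed to 20.7 FPKM in control cells and 11.6 FPKM in H19 cells. Tgfb1 made up 69.7% of that sum in control cells and 81.9% in H19 cells. The share of Tgfb3 was 22.8% and 11.9%, and that of Tgfb2 7.44% and 6.23%. The order Tgfb1, Tgfb3, Tgfb2 was the same in both libraries.

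**Figure D2:**
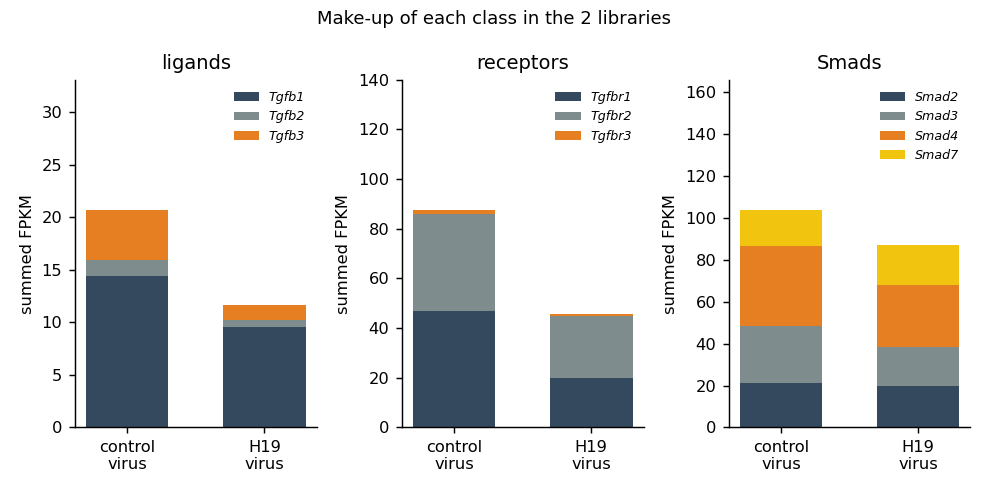
Summed FPKM of the ligand, receptor and Smad genes in each library, 1 library per bar, with the part of each gene in colour. The ligand sum was 20.7 and 11.6 FPKM, the receptor sum 87.5 and 45.8 FPKM and the Smad sum 104 and 87.1 FPKM, control first.

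Tgfbr1 (ENSMUSG00000007613, chr4:47353222-47414931, plus strand) encodes the type I receptor kinase. It was the most abundant of the 10 genes in the control cells, at 47.1 FPKM, and was at 20.1 FPKM in the H19 cells, where it ranked 3 of 10. The control value was 2.35 times the H19 value, a difference of -1.19. Of all measured genes, 0.839% had a difference as low or lower, and of 3783 genes with a mean level within 2-fold of its own, 23 did (0.608%). The authors' deposited table gives Tgfbr1 a log2 ratio of -1.23, p = 3.52e-07 and q = 3.53e-05. No other annotated gene overlaps Tgfbr1.

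Tgfbr2 (ENSMUSG00000032440, chr9:116084293-116175360, minus strand) encodes the type II receptor kinase, which binds the ligand first. It was at 38.9 FPKM in control cells and 24.6 FPKM in H19 cells, a ratio of 1.58 in favour of the control and a difference of -0.64. As low or lower were 5.18% of measured genes. The Tgfbr1 to Tgfbr2 ratio within a library was 1.21 in control cells and 0.815 in H19 cells, so the order of both kinases turned.

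Tgfbr3 (ENSMUSG00000029287, chr5:107106570-107289629, minus strand) encodes betaglycan, a coreceptor without a kinase that presents ligand. It was at 1.54 FPKM in control cells and 1.11 FPKM in H19 cells, a difference of -0.27. At this level 25.7% of 1426 genes of similar mean level were as low or lower. Tgfbr1 was 30.5 times as abundant as Tgfbr3 in control cells. One gene model on the same strand, Gm43422, shares 297 exonic bases with Tgfbr3 and was at 0.0162 and 0.0316 FPKM.

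**Figure D3:**
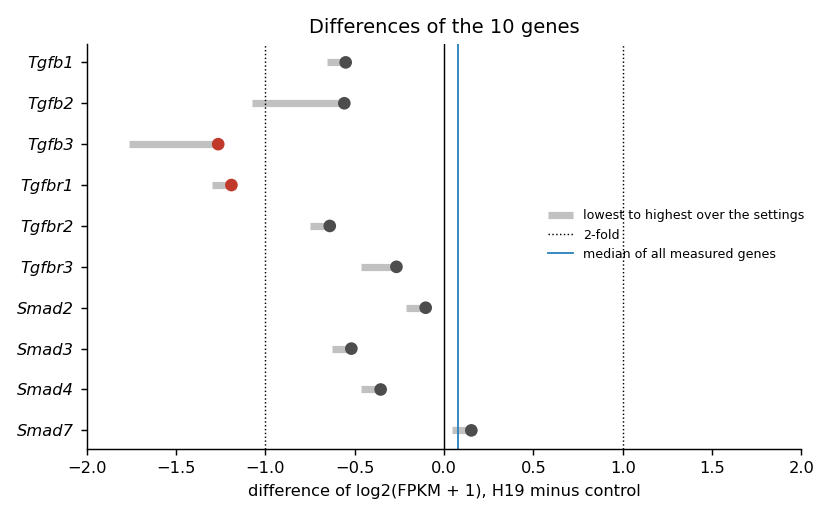
Difference of log2(FPKM + 1), H19 minus control, of each of the 10 genes (points; red at least 2-fold), with grey bars from the lowest to the highest value over the pseudocounts, filters and scalings tried. Tgfb3 and Tgfbr1 stay beyond the dotted 2-fold line under each pseudocount and scaling that was tried, the bar of Tgfb2 crosses it, and Smad7 stays above 0.

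Smad3 (ENSMUSG00000032402, chr9:63646767-63757994, minus strand), the receptor-activated Smad that binds DNA directly, was at 27.2 FPKM in control cells and 18.6 FPKM in H19 cells. Its difference was -0.52, with 7.82% of measured genes as low or lower. Smad2 (ENSMUSG00000024563, chromosome 18), the other Smad activated by the type I receptor, was at 21.3 and 19.7 FPKM, a difference of -0.10. At -0.10, 31.1% of measured genes were as low or lower. The Smad3 to Smad2 ratio was 1.28 in control cells and 0.945 in H19 cells.

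Smad4 (ENSMUSG00000024515, chromosome 18), the common partner of activated Smads, was at 38.4 FPKM in control cells and 29.8 FPKM in H19 cells. Its difference was -0.36, and it became the most abundant of the 10 genes in the H19 cells as Tgfbr1 and Tgfbr2 lay below it there. Its ratio to the sum of Smad2 and Smad3 was close in both libraries, 0.792 and 0.776.

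Smad7 (ENSMUSG00000025880, chromosome 18), the inhibitory Smad that recruits ubiquitin ligases to the type I receptor, was at 16.9 FPKM in control cells and 18.95 FPKM in H19 cells. The difference was 0.15, and 57.9% of measured genes were as low or lower, so this value lay near the middle of all genes. Relative to the sum of Smad2 and Smad3, Smad7 was at 0.350 in control cells and 0.494 in H19 cells. Relative to Tgfbr1 it was at 0.360 and 0.944. Without replicates none of these ratios has an error, and neighbours in the order of levels, such as Smad2, Tgfbr1 and Smad7 in the H19 cells (19.7, 20.1 and 18.95 FPKM), cannot be ranked with confidence.

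By class, the 3 receptor genes had a median difference of -0.64, the 3 ligand genes one of -0.56 and the 4 Smad genes one of -0.23. The 4 Smad genes lay between -0.52 and 0.15, and the 6 ligand and receptor genes between -1.26 and -0.27. Both genes past 2-fold belonged to the ligands and receptors.

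**Figure D4:**
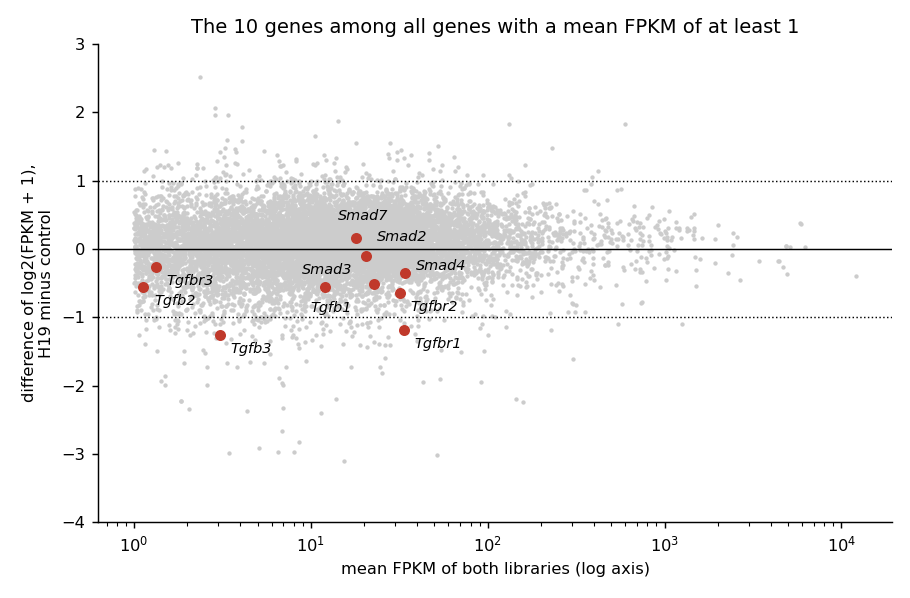
Difference of log2(FPKM + 1), H19 minus control, against the mean FPKM of both libraries (log axis) for the 11674 measured genes (grey) and the 10 genes (red). Dotted lines mark 2-fold, 3 genes lie outside the vertical axis, and Tgfb3 and Tgfbr1 lie below the bulk of genes at their level.

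The wider pathway was described by lists of other genes, 143 in all, of which 100 were measured. Of these 100 genes, 51 were lower and 49 higher, with a median difference of -0.04, and 3 were 2-fold lower and 2 were 2-fold higher (5.0%, beside 2.71% of all measured genes). The other pathway genes thus divided almost evenly, while 41.1% of all measured genes were lower, with a median of 0.08. Of the 10 ligand, receptor and Smad genes, 9 were lower.

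Among 6 measured genes of latency and activation 5 were lower, with a median of -0.36. Thbs1, which encodes thrombospondin 1, a matrix protein that can activate latent TGF-beta, was 2-fold lower at 4.75 FPKM in control cells and 1.404 FPKM in H19 cells. The other 5 differed by less than 2-fold: the latent TGF-beta binding protein gene Ltbp3, named after its value was seen, was at 65.4 and 48.9 FPKM. Among 6 coreceptors and decoys 2 were lower and 4 higher. Dab2, an endocytic adaptor known to bind the TGF-beta receptors and Smads, was 2-fold lower at 4.14 and 1.48 FPKM. The authors' deposited table lists Thbs1 with a log2 ratio of -1.76 and q = 0.000115 and Dab2 with -1.49 and q = 7.58e-06. It also lists the coreceptor Eng at -1.40 (q = 0.0431), which at 0.693 and 0.263 FPKM was not measured by the rule used here.

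None of the 6 measured receptors of activins and bone morphogenetic proteins was past 2-fold, with 3 lower and 3 higher. The largest differences were -0.34 for the activin type I receptor Acvr1b (12.8 and 9.96 FPKM) and 0.32 for the activin type II receptor Acvr2a (5.48 and 7.11 FPKM). Their range, -0.34 to 0.32, did not reach the values of Tgfbr1 and Tgfbr2 but held that of Tgfbr3 (-0.27). Of 5 measured related ligands, Gdf11 was at 4.87 and 3.04 FPKM and Bmp4 at 11.6 and 8.34 FPKM, and none was past 2-fold. Of 4 measured ligand traps and extracellular modulators, the protease Htra1 was at 8.32 and 14.3 FPKM and Twsg1, which binds bone morphogenetic proteins, at 30.4 and 19.4 FPKM.

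The 3 measured Smads outside the 10 genes were all lower. Smad6, the inhibitory Smad of bone morphogenetic protein signalling and the nearest measured gene on one side of Smad3, was at 3.56 and 1.99 FPKM (-0.61). Smad1, activated by those receptors, was at 11.3 and 8.49 FPKM (-0.37). Thus the inhibitory Smads differed in direction, Smad6 lower and Smad7 higher, each by less than 2-fold. Of 24 measured Smad regulators, 7 were lower and 17 higher, with a median of 0.11. Atf3, a stress-induced factor that can act with Smad3, was the only regulator past 2-fold, at 25.03 FPKM in control cells and 68.2 FPKM in H19 cells. It is also listed in the authors' deposited table as higher, with a log2 ratio of 1.45.

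Genes that TGF-beta is known to induce did not share a direction. Of 23 measured genes 14 were lower and 9 higher, with a median of -0.09. Snai2, which represses E-cadherin, was the only one past 2-fold on the values as deposited with a pseudocount of 1. It was higher, at 9.44 and 21.7 FPKM, and the authors' deposited table lists it with a log2 ratio of 1.20. The next examples were named after their values were seen. Ctgf, a matricellular protein, was at 177 and 91.2 FPKM, a difference of -0.95 that passed 2-fold as lower (-1.03) with the median of all genes set to 0. Bcl2l11, which encodes the pro-apoptotic protein Bim, was at 8.72 and 4.33 FPKM (-0.87), and the authors' deposited table lists it with a log2 ratio of -1.01 and q = 0.00241. The matrix genes Col1a1, Col1a2 and Col3a1 lay under 0.3 FPKM in both libraries. Of 7 measured genes that TGF-beta is known to repress, 5 were lower and 2 higher, with a median of -0.76. Id2, an inhibitor of basic helix-loop-helix factors, was 2-fold lower at 57.6 and 22.1 FPKM. The authors' deposited table lists Id2 too, with a log2 ratio of -1.38. Its relatives Id1 (109 and 54.6 FPKM, -0.99) and Id3 (11.9 and 5.70 FPKM, -0.95) were just short of 2-fold. Both passed 2-fold with the median of all genes set to 0. Several of these genes, the Id genes among them, are also targets of bone morphogenetic proteins, so the list does not read TGF-beta alone. Of 16 measured genes of the arm that runs without Smads, 8 were lower and 8 higher, with the largest differences in Pard6a, a polarity protein bound by the type I receptor (4.67 and 8.65 FPKM), and Shc1, an adaptor (82.5 and 50.3 FPKM).

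**Figure D5:**
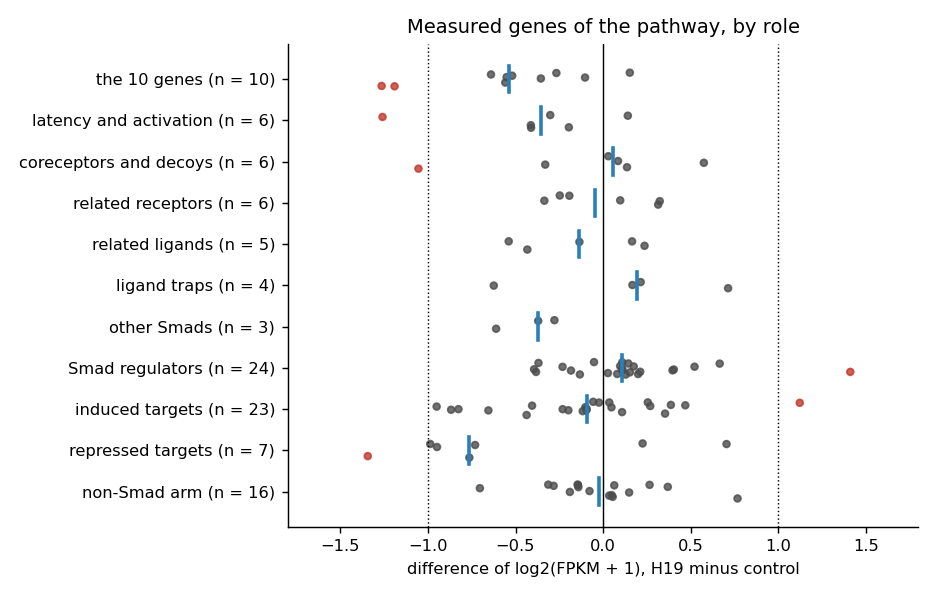
Difference of log2(FPKM + 1), H19 minus control, of every measured gene in the 10 genes and in each list of the pathway (points; red at least 2-fold), with the median of each list as a blue bar. Vertical scatter within a list has no meaning. The median of the 10 genes was -0.53, and among the lists those of repressed targets (-0.76), other Smads (-0.37) and latency and activation (-0.36) had the lowest medians.

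In liver, stellate cells, endothelial cells and macrophages also express these genes. Of 12 stellate cell and fibroblast markers with a row, 1 was measured, Des at 3.43 FPKM in control cells and 0.893 FPKM in H19 cells, and the other 11 did not exceed 0.288 FPKM. The summed level of all 12, Des included, was 4.13 and 1.43 FPKM. Of 6 endothelial markers with a row 2 were measured, Stab1 (3.22 and 3.95 FPKM) and Esam (1.48 and 1.72 FPKM), with sums over the 6 of 5.18 and 5.997 FPKM, and the leukocyte gene Ptprc was at 0.237 and 0.380 FPKM. The 6 macrophage and leukocyte markers with a row summed to 129.99 and 64.4 FPKM, almost all of it Cd14, which hepatocytes also express, and Cd68 was at 2.75 and 0.928 FPKM. Tgfb1, Tgfb3, Tgfbr1, Tgfbr2 and the 4 Smad genes exceeded each of the stellate markers in both libraries. Tgfb2 and Tgfbr3 were below Des in the control cells. Such levels do not show which cells the RNA came from, and this was not tested. The 5 biliary markers that were measured had a median of -0.80, with 4 lower, Krt7 past 2-fold among them, and Sox9 higher, and the part of such a shift in the values above was not tested. In bulk RNA, fewer cells of a type and less RNA per cell cannot be told apart.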

How the data were processed

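Libraries were assigned to the H19 and control virus by their titles, with 1 library per virus. Per the submitters' processing notes, the authors used CASAVA 1.4 and TopHat2 with mm9, a mouse build. Neither the quantification program nor the use of strand is stated there. The authors deposited FPKM, per the file headers, in a joint table and in per-library tables that hold the same values. The authors' deposited table of differences gives a log2 ratio, a p-value and a q-value for 561 genes (2.65% of the 21145 in the joint table), from a test that is not given, per the file headers.

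GENCODE M21 (GRCm38) holds 21017 of the identifiers, and 20991 deposited loci (99.9%) overlap the gene on that build. Coordinates are therefore those of GRCm38, although the notes name mm9. Each gene's log2(FPKM + 1) was compared between libraries with a pseudocount of 1 and a minimum mean FPKM of 1, and no test was run. Genes of similar level had a mean within 2-fold. Regions of similar length had between 0.8 and 1.25 times the bases.

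Depth is not given: among long genes with 1 transcript, the commonest low value of FPKM times kilobases held only 10 of 173 control genes, so no read totals were derived. The steps were tested on simulated data. The members and lists were chosen with earlier results of these data known. Besides the 10 genes and H19, the 2-fold genes of each pathway list were named, or else its 2 largest differences; marker genes and the exceptions marked in the text were named after their values were seen. The alternatives were a pseudocount of 0.1 or 0.01, no minimum, a minimum of 5, 3 scalings, thresholds of 1.5-fold and 3-fold and the per-library tables. Calculations used Python 3.11.15, numpy 2.4.6, pandas 2.3.3 and matplotlib 3.10.9.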

Additional observations from a re-analysis of the deposited data

How the results depend on the processing

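Each of the 10 genes kept its sign under every pseudocount, filter and scaling tried in which it was measured, with Smad7 between 0.04 and 0.16 and Tgfbr1 between -1.30 and -1.19. The median of the 10 genes lay between -0.62 and -0.52. The count past 2-fold was 2, where 1.57% of measured genes were lower by as much. It was 1 (Tgfbr1) with a minimum mean FPKM of 5 (1.26%), which leaves out Tgfb2, Tgfb3 and Tgfbr3. With a 3-fold threshold it was 0 (0.36%). It was 3 with a pseudocount of 0.01, through Tgfb2 (-1.08), where 2.92% of measured genes were lower by 2-fold. A 1.5-fold threshold also gave 3, through Tgfbr2, where 6.21% of all measured genes were lower by that threshold. The count of other pathway genes past the threshold, 5 of 100, stood beside 2.71% of all measured genes in either direction. It was 6 with a pseudocount of 0.1 and 7 with 0.01, where 5.06% and 5.45% of measured genes passed. A minimum mean FPKM of 5 gave 3 of 90 (2.22% of all genes). A 1.5-fold threshold gave 20 of 100 (15.2%) and a 3-fold threshold 0 (0.454%). The count was 8 with the median of all genes set to 0 (2.81%), with TPM (4.22%) or with equal upper quartiles (2.83%). Each time 6 were lower and 2 higher in place of 3 and 2. Ctgf, Id1 and Id3 were added as lower when the median was set to 0. Equal upper quartiles shifted the median of all measured genes by -0.10. No paired analysis was possible because there was 1 library per virus. For the same reason no library could be left out. The depth is unknown, so its limit on each value cannot be given.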

Other observations

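The nearest measured genes on either side of the 10 genes that did not overlap them, 19 different genes, lay 0.441 to 1865 kb away. This leaves out Ttll5, which overlaps Tgfb3 (difference -0.70). The 19 genes had a median difference of 0.06. Of them 7 were lower and 1 was past 2-fold, where 41.1% and 2.71% of all measured genes were. The gene past 2-fold was Col15a1, a basement membrane collagen gene 40.1 kb before Tgfbr1. It was at 9.16 FPKM in the control library and 2.52 FPKM in the H19 library (difference -1.53). On the other side of Tgfbr1, Alg2, a mannosyltransferase of N-glycan assembly, was at 16.6 and 16.8 FPKM. The neighbours of Tgfb1, B9d2 (0.444 kb away) and Ccdc97 (6.03 kb), had differences of 0.06 and 0.25, and Ift43, 3.50 kb from Tgfb3, one of -0.09. Aagab, 2.18 kb from Smad3, was at 15.4 and 22.7 FPKM, opposite in direction to Smad3. These neighbours were looked up after the values of the 10 genes were known.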
